A study of Mus musculus with 72 samples.

Results

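HMG proteins are abundant chromatin proteins that fall into 3 families. The genes examined here were Hmgn1, Hmgn2, Hmgn3 and Hmgn5 of the nucleosome-binding HMGN family, Hmga1 and Hmga2 of the HMGA family, and Hmgb1 and Hmgb2 of the HMGB family. These 8 members, of 22380 protein-coding genes in GENCODE vM1, were chosen by name, and every ChIP-seq peak of 16 antibodies within 20 kb of their gene bodies was taken. The question was whether HMG genes gain or lose marks and bound factors when Hmgn1 and Hmgn2 are deleted. WT cells were Hmgn1+/+n2+/+ and DKO cells were Hmgn1-/- n2-/-, all of strain C57BL/6 and of mouse origin. H3K27ac, H3K27me3, histone H1, p300, Brd3 and CEBPB were mapped in mouse embryonic fibroblasts (MEFs), Klf4, CTCF, NANOG, SOX2 and OCT4 in embryonic stem cells (ESCs), and IKAROS, ETS1, IRF8, PAX5 and OCT2 in resting B (rB) cells of the spleen. Each antibody had 2 biological replicates per genotype, so that 64 peak lists were compared. Which part of each gene was removed, and whether the replicates came from separate clones or animals, is not given in the sources used here. The p values therefore measure the spread between these libraries only. No antibody was used in more than 1 cell type.

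HMGN proteins attach to the nucleosome core, loosen chromatin locally and compete with the linker histone H1. HMGA proteins bind the minor groove of AT-rich DNA through AT-hooks, and Hmga2 is a gene of embryonic and mesenchymal cells. HMGB proteins carry HMG boxes that bend DNA, and HMGB1 also acts as an extracellular alarm signal. H3K27ac marks active promoters and enhancers. p300 is an acetyltransferase that places it, and Brd3 is a bromodomain protein that binds acetylated histones.

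The lists held between 10 and 84850 peaks. For H3K27ac the number of peaks in the DKO lists was 0.911 of that in the WT lists, for Brd3 0.318, for IKAROS 0.492, for CTCF 1.04, for NANOG 1.2, for SOX2 1.62 and for OCT4 2.42. Counts at HMG genes are therefore to be read beside the share of all windows or sites of the same antibody that changed the same way. In 44 of the 64 lists the read pileup could be solved from the deposited values, and the lowest background was 0.924 to 2.50 reads per position. The depth of the other lists is unknown. These were all lists of CEBPB, CTCF and NANOG and otherwise only DKO lists, among them both DKO lists of IKAROS and OCT2 and 1 DKO list each of SOX2, ETS1, IRF8 and PAX5. Of 7 fibroblast markers, 7 had an H3K27ac peak within 20 kb in both WT MEF lists, against 2 of 7 ESC markers and 4 of 7 B cell markers. Of 7 ESC markers, 7 had an OCT4 peak in both WT ESC lists, and of 7 B cell markers, 7 had an IKAROS peak in both WT rB lists, where 0 of 7 fibroblast markers had one. The check was weaker for other lists, since OCT4 peaks lay at 3 of 7 fibroblast and 3 of 7 B cell markers and NANOG peaks at 6 of 7 B cell markers. In the short H3K27me3, H1, PAX5 and OCT2 lists 0 of 7 markers of the own cell type had a peak in both WT libraries.

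Peaks were found at the members for 12 of the 16 antibodies. H3K27me3, H1, PAX5 and OCT2 gave 0 peaks at all 8 genes in both genotypes. Merging the peaks of an antibody's 4 lists gave 292 sites, of which 104 were called in every list of their antibody. In DKO cells, no H3K27ac, Brd3 or IKAROS peak was called at Hmgn2, whereas Hmgn1 kept peaks over its start and IKAROS rose there. Of genes with a peak in both WT lists, 1.65% for H3K27ac, 23.2% for Brd3 and 28.1% for IKAROS had none in DKO. At the members that were not deleted, NANOG and CTCF rose at Hmgn5, NANOG fell at an intronic site of Hmga2, and CTCF fell beside Hmgb1 and rose beside Hmgb2. For CTCF such calls were common, with 25.2% of all shared sites lower and 22.6% higher. H3K27ac passed the test at none of its 53 shared sites (limma), beside 3.62% lower and 3.89% higher of all shared H3K27ac sites. The lists come from pools of cells, in which fewer cells with a mark and less of the mark per cell cannot be told apart.

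**Figure D1:**
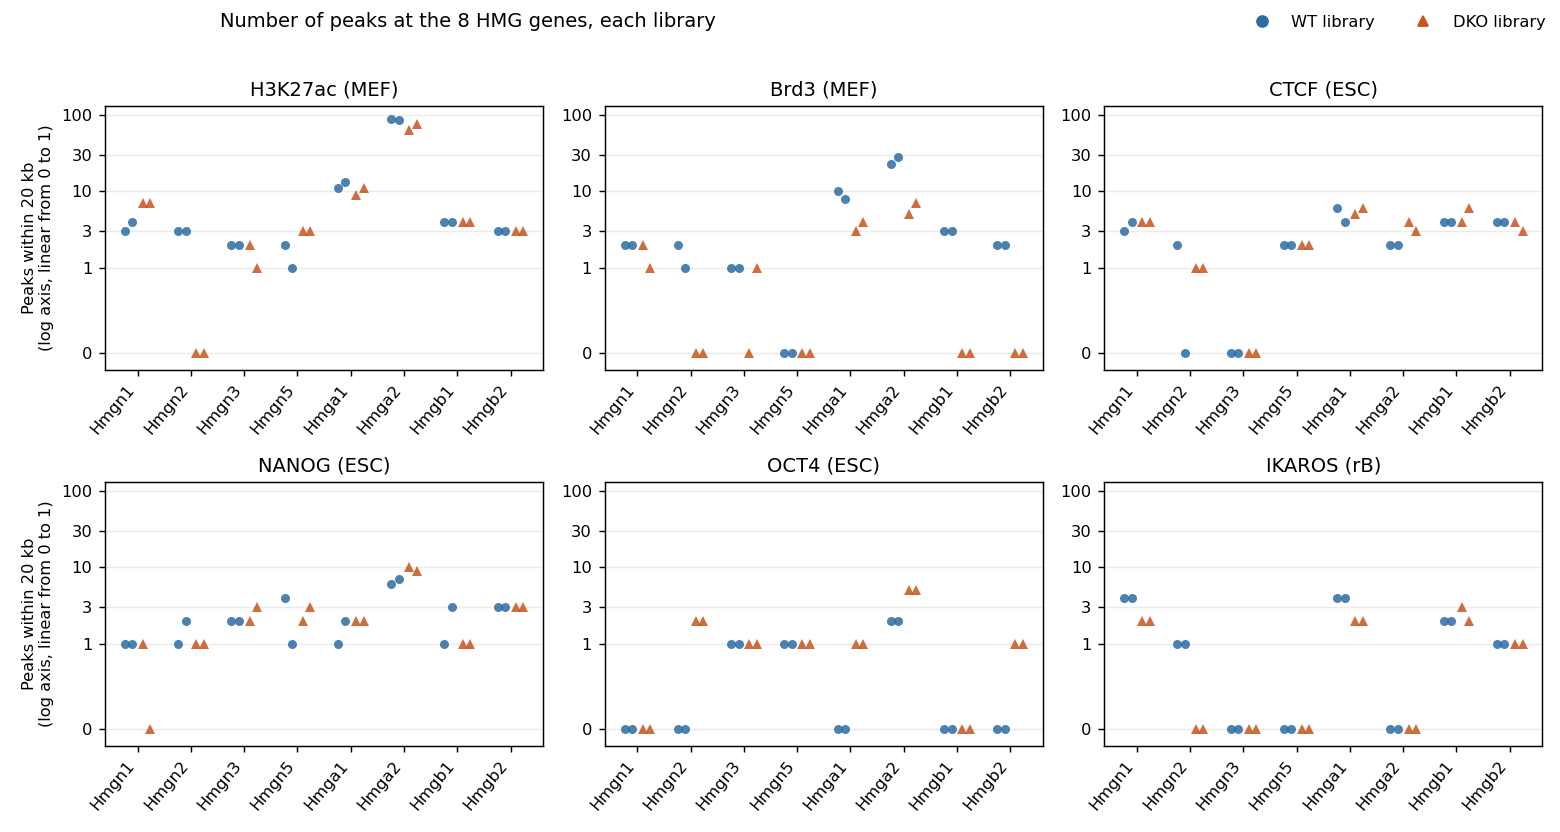
Number of peaks within 20 kb of each HMG gene (log axis, linear from 0 to 1) for 6 antibodies, with 1 point per library, circles for WT and triangles for DKO. Hmgn2 falls from 3 H3K27ac peaks in both WT libraries to 0 in both DKO libraries, Brd3 points are lower in DKO at Hmgb1, Hmgb2, Hmga1 and Hmga2, and OCT4 points are higher in DKO at Hmgn2 and Hmga2.

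Hmgn2 (chr4:133520653-133524565, minus strand, mm9) encodes one of the deleted HMGN variants, and its body held no peak in DKO cells. Over the 16 antibodies, 6 peaks overlapped the gene body in the lists of WT replicate 1 and 7 in those of WT replicate 2, and 0 in those of both DKO replicates. H3K27ac formed 3 sites in both WT MEF lists, 0.263, 0.874 and 1.54 kb downstream of the start. Fold enrichment at the middle one, in an Hmgn2 exon at chr4:133523515-133523917, was 14.6 and 14.01 in the WT libraries. No DKO library had a peak at any of the 3. Of genes with an H3K27ac peak in both WT lists, 1.65% had none in either DKO list, and Hmgn2 was 1 of the 8 members to do so. When peaks within 1000 bp were merged, Hmgn2 had 1 peak per WT library and fell below the minimum mean of 1 peak. Brd3 at 0.389 kb had fold enrichments of 4.26 and 5.80 in WT and no peak in DKO. IKAROS, a zinc finger regulator of lymphoid genes, had a strong site 0.935 kb downstream of the start in rB cells, with fold enrichments of 22.2 and 24.5 in WT, and no peak in either DKO library, as at 28.1% of genes with an IKAROS peak in both WT lists. Loss of the DNA and loss of the mark from it cannot be told apart in these lists, since the deletion is in the gene itself. Hmgn2 is known to have processed copies elsewhere in the genome, so that peaks over its exons, among them the IKAROS site and 2 of the 3 H3K27ac sites, are less certain than those in introns and flanks. How uniquely reads map there was not tested.

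In the flanks of Hmgn2, NANOG and SOX2 shared a site that was called in both genotypes. NANOG 12.2 kb downstream of the start had fold enrichments of 19.0 and 12.9 in WT and 12.2 and 19.0 in DKO ESCs, so the groups overlapped (limma, adjusted p = 0.795). SOX2, the HMG-box partner of OCT4, was called in all 4 libraries at the same place. OCT4, a POU factor of pluripotency, was called in DKO only at 2 sites. At 14.9 kb its fold enrichment was 13.3 and 11.0, and at 15.8 kb it was 9.35 and 9.45. Of all OCT4 sites 28.8% were DKO-only, and of genes with an OCT4 peak in both DKO lists 32.3% had none in WT, with Hmgn2, Hmgb2 and Hmga1 among the 6 such members. CTCF, the insulator protein, was called 14.5 kb upstream in an intron of Dhdds at 3.16 in WT replicate 1, in no peak of WT replicate 2, and at 11.2 and 12.1 in DKO. A weak CTCF site 4.87 kb upstream was called in WT replicate 1 alone, at 4.81.

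Hmgn1 (chr16:96342225-96349336, minus strand) encodes the other deleted variant. Unlike that of Hmgn2, its start still gave peaks in DKO cells. The gene body was overlapped by 3 peaks in the lists of each WT replicate and by 5 in those of each DKO replicate. All of these lay within 2.6 kb of the start, so that the remaining part of the gene gave no peak in either genotype to compare. H3K27ac at the start had fold enrichments of 19.5 and 21.3 in WT and 25.6 and 27.3 in DKO. The groups did not overlap, but the difference of 0.45 ± 0.17 (SE, log2 scale, n = 2 per genotype) did not pass the threshold of 0.05 (limma, adjusted p = 0.0904). The number of H3K27ac peaks in the window was 3 and 4 in WT and 7 and 7 in DKO, and the kilobases they covered were 2.95 and 2.78 against 3.44 and 3.43. Both were higher without overlap, as peak numbers were for 7.16% of all genes tested. With peaks within 1000 bp merged, or within 50 kb of the gene, the peak numbers of Hmgn1 were no longer apart. Brd3 at the start was 13.8 and 10.7 in WT, 9.74 in DKO replicate 1, and not called in DKO replicate 2.

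Relative to the median of all shared sites of the antibody, IKAROS at the start of Hmgn1 had the largest change of the 104 shared member sites. At chr16:96349102-96349345, with its summit in the UTR 0.114 kb downstream of the start, fold enrichment was 8.80 and 7.26 in WT and 24.5 and 21.1 in DKO rB cells. Both DKO libraries exceeded both WT libraries. IKAROS fold enrichment over all shared sites was lower in DKO, by 0.91 on the log2 scale, and changes are given relative to that median. The site rose by 2.42 ± 0.18 (log2, SE, limma, adjusted p = 5.67e-05), and by 1.51 without that centring. Without centring, NANOG at 47.3 kb of Hmga2 changed further, by -1.73. The IKAROS site was the top of all 3549 shared IKAROS sites, of which 8.26% were higher and 8.51% lower in DKO. The pileups of both WT IKAROS lists could be solved, with 100% of them whole numbers, but not those of the DKO lists, with 3.52% and 2.79% whole, so that the depth of the 2 groups could not be compared, and the part of this difference in the change was not tested. Hmgn1, like Hmgn2, is known to have processed copies, so the same limit holds for this site and the other peaks over its exons. The other Hmgn1 sites of rB cells did not move that way. IKAROS at 17.6 kb was 14.2 and 13.6 in WT and 6.10 and 6.72 in DKO, a relative change of -0.20 (adjusted p = 0.493). IKAROS at 18.0 kb and ETS1, an ETS family factor, at 17.8 kb were called in both WT libraries and no DKO library. All 3 lie in an intron of Gm15341. In the window 4 IKAROS peaks were called in both WT lists and 2 in both DKO lists, and 47.7% of genes tested were lower in this way. The groups were no longer apart within 5 kb or with peaks within 1000 bp merged. Across all sites 28.2% of IKAROS and 33.9% of ETS1 sites were WT-only, and 53.6% of genes with an ETS1 peak in both WT lists had none in DKO. In ESCs, CTCF 24.5 kb downstream of the start rose from 26.6 and 24.8 to 31.9 and 33.7, by 0.31 ± 0.09 (log2, adjusted p = 0.0308). Among CTCF sites 22.6% were higher, and without WT replicate 2, DKO replicate 1 or DKO replicate 2 the change, then 0.24, 0.36 or 0.25, was not past the threshold, nor was it without a variance trend.

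**Figure D2:**
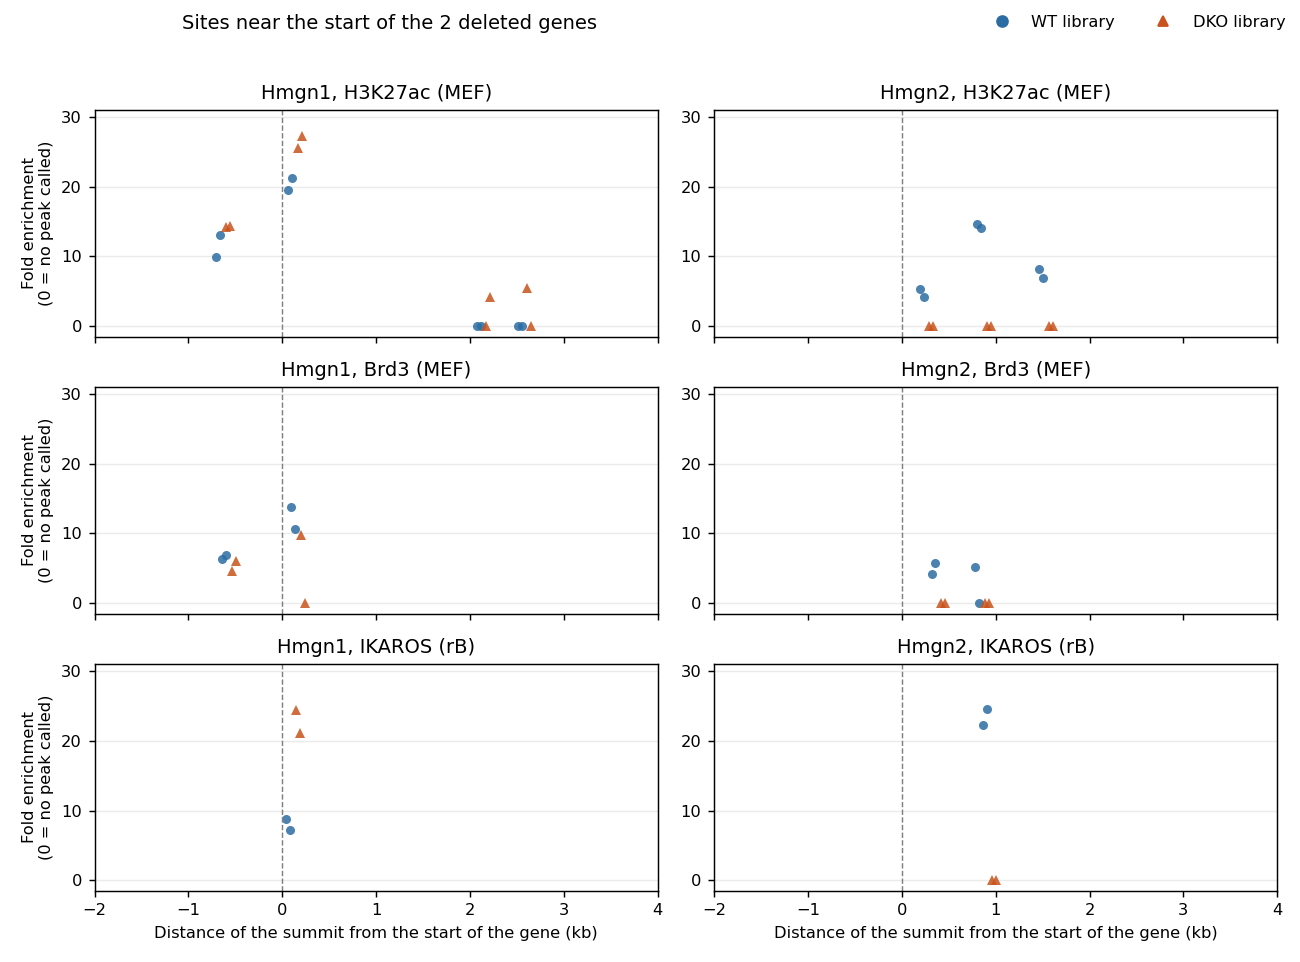
Fold enrichment of H3K27ac and Brd3 in MEFs and IKAROS in rB cells against the distance of the summit from the start of Hmgn1 and Hmgn2 in kb, with 1 point per library, circles for WT and triangles for DKO, and 0 where no peak was called. At Hmgn2 the DKO points lie at 0, while at Hmgn1 the DKO points for IKAROS, at 24.5 and 21.1, lie above the WT points at 8.80 and 7.26.

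Hmgn3 and Hmgn5 encode HMGN variants that remain in DKO cells. At Hmgn3 (chr9:83003555-83040292, minus strand) H3K27ac in the intron 0.567 kb from the start was 9.25 and 11.5 in WT and 7.04 and 7.74 in DKO MEFs. The DKO values were lower without overlap, but the change of -0.40 ± 0.24 (log2) was not past the threshold (limma, adjusted p = 0.328). A weak H3K27ac site downstream of the gene, 43.1 kb from the start, was WT-only at 4.30 and 4.58. WT-only sites made up 5.83% of all H3K27ac sites. Brd3 0.575 kb from the start was 5.93 and 5.19 in WT, absent in DKO replicate 1 and 6.00 in DKO replicate 2.

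OCT4 had the highest fold enrichment at Hmgn3 in ESCs. The site 11.5 kb upstream, in intergenic DNA, had fold enrichments of 18.0 and 17.25 in WT and 39.2 and 39.5 in DKO, with no overlap. OCT4 fold enrichment over all shared sites was higher in DKO by 0.96 on the log2 scale. Relative to that median the site changed by 0.20 ± 0.13 (adjusted p = 0.241), and without the centring by 1.158. NANOG, a homeodomain factor, was called there at 9.62 and 9.57 in WT and 12.3 and 11.0 in DKO, a change of 0.23 (adjusted p = 0.423). SOX2 was called in DKO replicate 2 only. The 101 bases around the OCT4 summit, chr9:83051708-83051808 of mm9 (plus strand), are shown because they hold the octamer string ATGCAAA 2 times, both on the minus strand and in capitals here, with no overlap between them.
Hmgn3 OCT4 site: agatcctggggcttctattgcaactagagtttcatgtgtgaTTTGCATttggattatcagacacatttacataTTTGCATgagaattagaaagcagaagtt
Of 9434 shared OCT4 sites, 20.7% held this string on either strand within the same length and 3.40% held it 2 or more times.

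Hmgn5 (chrX:106199873-106208743, minus strand), the X-linked variant, showed higher NANOG and CTCF in DKO ESCs, on either side of its start. NANOG 1.72 kb upstream rose from 13.8 and 13.9 in WT to 35.8 and 30.6 in DKO, by 1.21 ± 0.15 (log2, SE, limma, adjusted p = 8.59e-05). The groups were far apart, and 1.69% of the 39762 shared NANOG sites rose at least as far. NANOG sites were higher in DKO at 14.0% and lower at 16.0% of all shared sites. OCT4 at the same place was 10.4 and 8.68 in WT and 19.1 and 20.8 in DKO, which relative to all OCT4 sites was a change of 0.11 ± 0.18 (adjusted p = 0.662). SOX2 there was called only in the DKO libraries, at 11.3 and 13.3, as were 16.6% of all SOX2 sites, and Hmgn5 was the 1 member with SOX2 peaks in both DKO lists and none in WT, as at 19.2% of the 7472 genes with a SOX2 peak in both DKO lists. CTCF in an intron, 0.679 kb downstream of the start, rose from 7.02 and 6.61 to 17.2 and 21.8, by 1.46 ± 0.18 (adjusted p = 6.14e-04). Of 56473 shared CTCF sites, 0.811% rose at least as far. A further CTCF site 11.97 kb from the start was 12.95 and 10.8 in WT and 9.93 and 10.4 in DKO (adjusted p = 0.219).

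Hmgn5 was also set beside the other sites of its chromosome. The median change of X sites was 0.02 for CTCF and 0.03 for NANOG, against -0.04 and -0.03 for autosomal sites. For OCT4 it was -0.36 on the X chromosome and -0.02 on autosomes. Of X sites 2.77% were higher in DKO for OCT4, 16.2% for CTCF and 12.5% for NANOG, against 20.6%, 22.9% and 14.0% of autosomal sites. The OCT4 change of 0.11 at Hmgn5 is relative to all OCT4 sites and was not tested against X sites alone. In MEFs, H3K27ac 0.253 kb from the start of Hmgn5 was 7.18 and 7.38 in WT and 6.58 and 5.28 in DKO (adjusted p = 0.648). The number of H3K27ac peaks was 2 and 1 in WT and 3 and 3 in DKO, higher without overlap as at 7.16% of genes tested. The groups were no longer apart with peaks within 1000 bp merged, with a minimum -log10 q or fold enrichment of 4, or by kilobases covered. The Hmgn5 sites are shown because they carried the changes of this gene, as 101 bases around the NANOG summit, chrX:106210408-106210508, and around the CTCF summit, chrX:106208014-106208114 (mm9, plus strand). In the NANOG site the capital marks the summit base, and the strings TAATGG (NANOG), ATGCAAA (OCT4) and CATTGT (SOX2) were not found in these letters on either strand. In the CTCF site the capitals mark a match on the minus strand to the CTCF core searched here (CC, any 3 bases, AG, any 2 bases, GGC), whose last letters as printed also read TAATGG.
Hmgn5 NANOG site: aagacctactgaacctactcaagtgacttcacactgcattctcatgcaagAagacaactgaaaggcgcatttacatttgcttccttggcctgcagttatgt
Hmgn5 CTCF site: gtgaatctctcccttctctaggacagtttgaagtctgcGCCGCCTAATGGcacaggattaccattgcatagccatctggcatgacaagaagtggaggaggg
The CTCF core was present at 47.2% of CTCF sites, TAATGG at 8.43% of NANOG sites and CATTGT at 15.8% of them, over the same length and both strands.

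Hmga1 (chr17:27693565-27700619, plus strand) and Hmga2 (chr10:119798331-119913525, minus strand) held most of the sites, 51 and 150 of the 292. Hmga2 is 115 kb long and lay in a broad acetylated domain in MEFs. H3K27ac formed 87 and 85 peaks there in the WT libraries and 64 and 75 in the DKO libraries, covering 53.5 and 50.8 kb against 43.8 and 46.8 kb. The DKO numbers were lower without overlap, as they were for 23.6% of all genes tested, but not with peaks within 1000 bp merged. The strongest site, over the start at chr10:119910050-119915611, had fold enrichments of 37.1 and 28.8 in WT and 25.8 and 23.2 in DKO, a change of -0.34 ± 0.16 (log2, limma, adjusted p = 0.197). Of the Hmga2 H3K27ac sites 36 were called in all 4 libraries and 0 passed the test. H3K27ac was called in WT only at 60.6 and 97.2 kb and in DKO only at 30.1 and 112 kb, all of them weak intronic sites. DKO-only sites made up 4.40% of all H3K27ac sites.

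Brd3 peaks spread over the same domain in WT. Within 5 kb of the start there were 5 and 5 Brd3 peaks in WT and 5 and 4 in DKO. Beyond 5 kb there were 18 and 23 in WT and 0 and 3 in DKO. This split was not computed for other genes, and the DKO lists of Brd3 held 0.318 of the peaks of the WT lists, so nothing particular to Hmga2 is read from it. The site over the start was 11.3 and 10.5 in WT and 9.26 and 10.5 in DKO, and these values overlapped. Brd3 at 1.89 kb was 9.51 and 9.18 in WT and 4.40 and 5.81 in DKO, lower without overlap. Relative to all shared Brd3 sites that change was -0.47 (limma, adjusted p = 0.316), and without centring it was -0.89. Brd3 at -1.47 kb was 5.02 and 7.205 in WT and 5.70 and 7.45 in DKO, which overlapped. Of the Hmga2 Brd3 sites 10 were WT-only, at fold enrichments of 3.70 to 5.84, while 27% of all Brd3 sites were WT-only. Brd3 peak numbers were lower without overlap at 65.5% of genes tested. With the same number of top peaks taken from each list, Hmga2 instead had more Brd3 peaks in both DKO libraries. p300 gave 5 peaks at Hmga2 in WT replicate 1 and 0 in the other 3 libraries, so the WT replicates themselves differed.

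**Figure D3:**
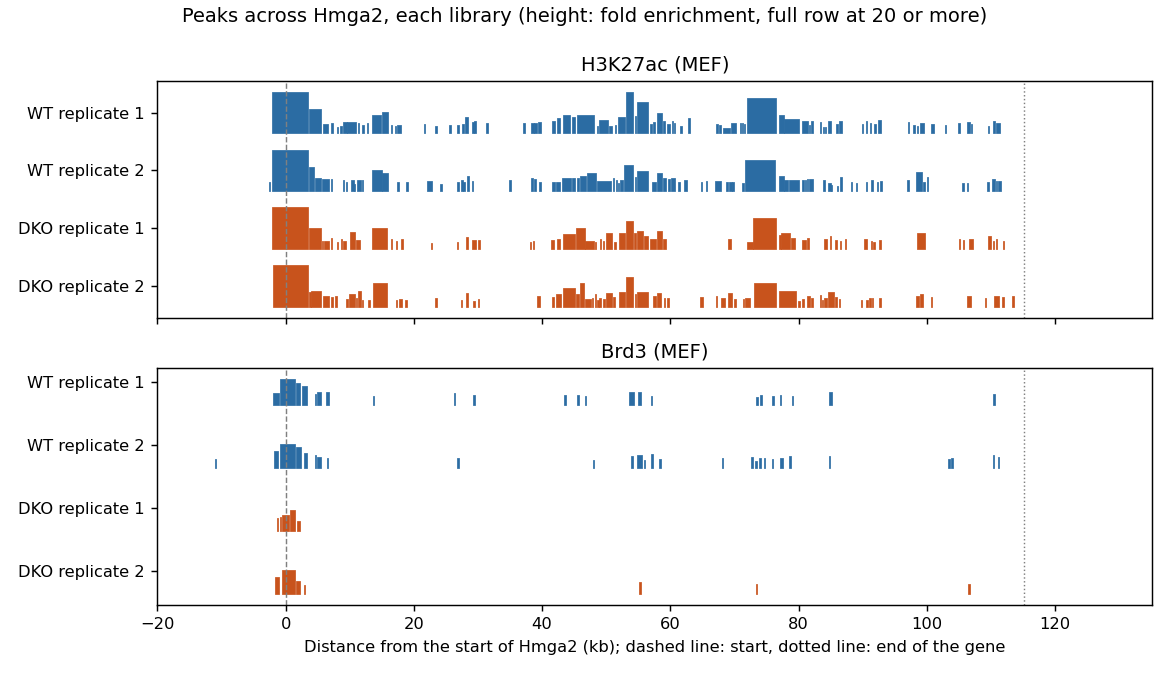
Peaks of H3K27ac and Brd3 across Hmga2 in each MEF library, plotted against the distance from the start of the gene in kb, with the height of a bar giving fold enrichment up to 20. H3K27ac covers 53.5 and 50.8 kb in WT and 43.8 and 46.8 kb in DKO, while Brd3 peaks beyond 5 kb from the start number 18 and 23 in WT and 0 and 3 in DKO.

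In ESCs, where pluripotency factors had sites along Hmga2, NANOG fell at 1 strong site and rose at a weaker one. NANOG in the intron 47.3 kb from the start, at chr10:119865918-119866449, fell from 29.4 and 30.2 in WT to 8.91 and 9.12 in DKO. The change was -1.77 ± 0.16 (log2, SE, limma, adjusted p = 1.07e-05), and 30 of the 39762 shared NANOG sites (0.0754%) fell at least as far. SOX2 at the same place was WT-only, at 5.02 and 6.96, as were 0.588% of SOX2 sites. NANOG at 77.4 kb rose from 14.5 and 10.6 to 19.8 and 20.6, by 0.66 ± 0.18 (adjusted p = 0.0165), and OCT4 there was DKO-only at 8.31 and 8.47. Without WT replicate 2, DKO replicate 1 or DKO replicate 2 that NANOG change was 0.42, 0.69 or 0.63 and not past the threshold, nor was it past it without a variance trend. NANOG at 87.7 kb, the strongest site of the gene, was 40.6 and 38.0 in WT and 35.6 and 35.0 in DKO (adjusted p = 0.204). A weak NANOG site past the end of the gene, at 117 kb, was DKO-only.

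OCT4 gave 2 peaks at Hmga2 in both WT lists and 5 in both DKO lists, and NANOG gave 6 and 7 against 10 and 9. Both were higher without overlap. So were 57.2% of genes tested for OCT4 and 32.9% for NANOG. CTCF peaks were 2 and 2 in WT and 4 and 3 in DKO, as for 9.88% of genes. With the same number of top peaks from each list, none of these 3 antibodies had more Hmga2 peaks in both DKO libraries, and for CTCF the groups were also no longer apart within 50 kb of the gene. OCT4 at 73.9 kb was 8.20 and 9.89 in WT and 12.5 and 7.41 in DKO, and these overlapped. Relative to the median of all OCT4 sites it changed by -0.87 ± 0.23 (adjusted p = 0.00392), but uncentred the difference was 0.10 in the other direction, and without DKO replicate 2 it was -0.42 and not past the threshold. The NANOG site at 47.3 kb is shown as the one with the largest fall among the 104 shared member sites, 101 bases at chr10:119866219-119866319 (mm9, plus strand) with the summit base in capitals. The NANOG, OCT4 and SOX2 strings named above were not found in these letters on either strand.
Hmga2 NANOG site: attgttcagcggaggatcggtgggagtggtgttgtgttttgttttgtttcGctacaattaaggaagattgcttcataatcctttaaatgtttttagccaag

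**Figure D4:**
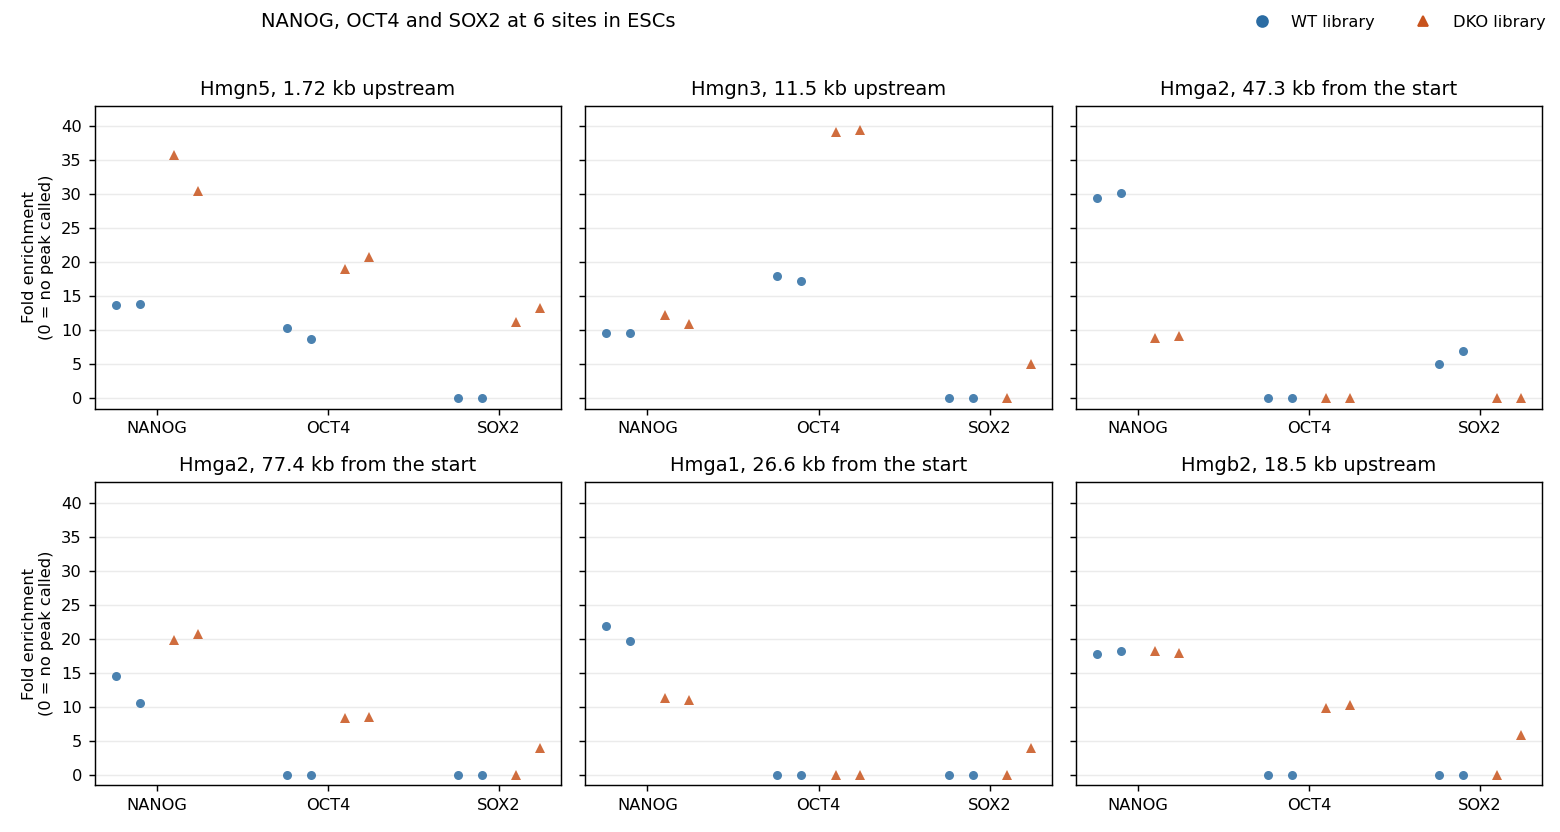
Fold enrichment of NANOG, OCT4 and SOX2 at 6 sites of HMG genes in ESCs, with 1 point per library, circles for WT and triangles for DKO, and 0 where no peak was called. NANOG at Hmgn5 rises from 13.8 and 13.9 to 35.8 and 30.6 and at Hmga2, 47.3 kb from the start, falls from 29.4 and 30.2 to 8.91 and 9.12, while at Hmgb2 it stays near 18.

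Hmga1 had peaks near its start in all 3 cell types. IKAROS formed 4 sites between -0.735 and 0.640 kb. At 0.121 kb, with the summit in the UTR, its fold enrichment was 14.2 and 18.2 in WT and 17.0 and 17.6 in DKO rB cells, and these overlapped. Relative to the median of all IKAROS sites it was higher by 1.02 ± 0.16 (log2, limma, adjusted p = 0.00499), but without the centring by 0.10 and not past the threshold. The sites at -0.735 and 0.640 kb were WT-only. The number of IKAROS peaks was 4 and 4 in WT and 2 and 2 in DKO, as at Hmgn1, beside 47.7% of genes tested. With equal numbers of top peaks, or with peaks within 1000 bp merged, the 2 groups were no longer apart at Hmga1. ETS1 gave 1 peak in each WT library, at different places, and 0 in DKO.

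In MEFs Hmga1 had 4 p300 sites, of which those at 5.34 and 5.73 kb were called in both libraries of 1 genotype and in none of the other. The first was DKO-only at 6.32 and 7.80, and the second was WT-only at 10.1 and 7.80. They lie within 500 bp of each other, and with peaks joined over that distance they form 1 site called in all 4 libraries, with no gain or loss. The remaining sites, at -0.992 and 4.64 kb, were called in WT replicate 1 alone, at 7.14, and in WT replicate 1 and DKO replicate 2, at 4.40 and 5.88. Across the genome 15.2% of p300 sites were WT-only and 0.632% DKO-only. H3K27ac did not pass the test at any of 6 Hmga1 sites, of which the lowest adjusted p, 0.07, was at 9.49 kb with 12.8 and 10.2 in WT and 6.78 and 6.44 in DKO. There were 10 and 8 Brd3 peaks in the WT libraries and 3 and 4 in the DKO libraries, a difference of the kind found at 65.5% of genes tested and no longer present with equal numbers of top peaks. In ESCs, NANOG 26.6 kb from the start, in an exon of the neighbour Nudt3, fell from 21.9 and 19.6 to 11.2 and 10.9, by 0.95 on the log2 scale (SE 0.17, adjusted p = 0.00112). NANOG was lower at 16.0% of all shared sites. A weak NANOG site at the promoter and an OCT4 site at 22.7 kb were DKO-only. Of all NANOG sites 9.44% were DKO-only. CTCF at 9.22 kb, in a coding exon of C130040N14Rik, rose from 26.3 and 30.9 to 42.6 and 44.7, by 0.56 ± 0.10 (adjusted p = 0.00275), where 22.6% of all shared CTCF sites were higher.

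Hmgb1 (chr5:149858278-149865089, minus strand) and Hmgb2 (chr8:59990640-59994796, plus strand) are broadly expressed HMG-box genes, and both had H3K27ac near their starts in each library. Hmgb1 had 4 H3K27ac peaks in each of the 4 MEF libraries and Hmgb2 had 3. At Hmgb1 the widest site, 2.04 kb from the start, was 20.8 and 21.3 in WT and 16.9 and 18.6 in DKO (limma, adjusted p = 0.619). A weak Hmgb1 site at -0.0860 kb was WT-only at 5.40 and 5.49, beside a strong one at 0.665 kb that was called in all 4 libraries. At Hmgb2 the site 0.273 kb from the start was 11.7 and 9.31 in WT and 12.5 and 16.4 in DKO, higher without overlap but not past the threshold (adjusted p = 0.135).

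Brd3 was called near both HMGB starts in WT and not in DKO. At Hmgb1 the site at 2.03 kb was 7.22 and 7.99 in WT, with a further one at 22.0 kb at 7.92 and 6.94. At Hmgb2 the site at -0.427 kb was 8.43 and 9.42, with a further one at 0.268 kb. None had a peak in DKO. Among genes with a Brd3 peak in both WT lists, 23.2% had none in DKO, and of the 7 members of this kind Hmgn2, Hmgb1 and Hmgb2 had none. With the same number of top peaks from each list, Brd3 still gave 1 and 2 peaks at Hmgb1 and 1 and 1 at Hmgb2 in the WT lists and 0 in the DKO lists, both now under the minimum mean of 1 peak, whereas Hmgn2 had 0 in all 4. In rB cells IKAROS was called in all 4 libraries near the starts of both genes. At Hmgb2 it was 26.6 and 31.8 in WT and 11.2 and 14.5 in DKO, a change of -0.27 ± 0.17 relative to all IKAROS sites (adjusted p = 0.286).

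CTCF around the HMGB genes of ESCs moved in both directions, as it did genome-wide, where 25.2% of shared CTCF sites were lower and 22.6% higher. At Hmgb1 it fell at 2 sites. The one 18.2 kb upstream fell from 44.2 and 42.8 to 24.7 and 19.5, by 1.04 (log2, SE 0.11, adjusted p = 4.25e-04), and the one 13.5 kb downstream of the start fell from 39.1 and 42.7 to 30.3 and 26.9, by 0.57 (SE 0.09, adjusted p = 0.00184). At Hmgb2 it rose at 3 sites. In an intron of the gene 2500002B13Rik, 7.99 kb upstream, it rose from 14.9 and 13.5 to 26.8 and 27.7, by 0.89 ± 0.12 (adjusted p = 7.78e-04). The other two lie in introns of Galnt7, at 19.4 and 20.6 kb, with changes of 0.40 and 0.43. Of all shared CTCF sites 17.0% had a change at least as negative as the Hmgb1 site at 13.5 kb, and 22.0% and 20.9% had one at least as high as the Galnt7 sites. The change at 19.4 kb was 0.40 and not past the threshold without DKO replicate 2, and the change at 20.6 kb was between 0.39 and 0.46 and not past the threshold when any 1 of the 4 libraries was left out. NANOG at -18.5 kb of Hmgb2 was 17.8 and 18.2 in WT and 18.2 and 17.9 in DKO, while OCT4 there was DKO-only at 9.84 and 10.3. SOX2 at the end of Hmgb1, at 6.76 kb, was DKO-only at 4.27 and 7.16, where NANOG was called in all 4 libraries. Hmgb1 too is known to have processed copies, and its SOX2 site here and its Brd3 site at 2.03 kb lie in the UTR, where mapping was not tested.

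The CTCF sites with the largest change at each HMGB gene are shown to compare their letters, at chr5:149883269-149883369 and chr8:59982599-59982699 (mm9, plus strand). Both hold a match to the CTCF core named above on the minus strand, in capitals. On either strand, 9 of the 18 shared CTCF sites at the members held a match, beside 47.2% of all shared CTCF sites.
Hmgb1 CTCF site: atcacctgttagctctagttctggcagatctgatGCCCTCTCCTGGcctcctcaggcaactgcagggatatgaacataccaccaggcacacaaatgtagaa
Hmgb2 CTCF site: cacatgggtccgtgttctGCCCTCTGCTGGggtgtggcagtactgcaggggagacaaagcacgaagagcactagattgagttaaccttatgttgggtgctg
The site that fell and the site that rose thus both matched this core, but their letters in capitals are not the same.

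Over all 104 shared sites of the members, fold enrichment was lower in DKO at 5 and higher at 10, and without centring at 11 and 14. None of the 53 H3K27ac sites passed (limma), and 10 of them had an unadjusted p under 0.05, 6 lower and 4 higher. The share of all H3K27ac sites with such an unadjusted p was not computed, so no excess at the members is read from it. With -log10 p in place of fold enrichment, 6 of the 15 calls were not past the threshold, namely CTCF at Hmgn1, CTCF at 13.5 kb of Hmgb1, CTCF at 19.4 and 20.6 kb of Hmgb2, NANOG at Hmga1 and NANOG at 77.4 kb of Hmga2. Across the genome 3.62% of H3K27ac sites were lower and 3.89% higher. Of 18 CTCF sites 2 were lower and 6 higher, beside 25.2% and 22.6% of all CTCF sites. Of 14 NANOG sites 2 were lower and 2 higher, beside 16.0% and 14.0% of all NANOG sites. Of 7 IKAROS sites 0 were lower and 2 higher, beside 8.51% and 8.26%. The centring had removed an IKAROS shift of -0.91. Uncentred, the sites called higher changed by 1.51 at Hmgn1 and 0.10 at Hmga1, the second not past the threshold. The others changed by -1.19, -1.12, -0.88, -0.70 and -0.63. Of 4 OCT4 sites 1 was lower and 0 higher, beside 21.7% and 20.1% of all OCT4 sites. For OCT4 the centring had removed a shift of 0.96, and uncentred the site called lower, at Hmga2, changed by 0.10. The other OCT4 sites changed by 1.33, 1.158 and 1.07 uncentred. None of 6 Brd3 sites passed (limma), 0 of them with an unadjusted p under 0.05, beside 0.664% lower and 0.830% higher of all Brd3 sites. The centring had removed a Brd3 shift of -0.41 over all shared sites. Uncentred, the 6 changed by -0.89, -0.52, -0.44, -0.32, -0.14 and 0.12. Neither of 2 SOX2 sites passed, 0 of them with an unadjusted p under 0.05, beside 14.6% lower and 12.5% higher of all SOX2 sites. The SOX2 shift removed was 0.40, and uncentred these 2 changed by 0.15 and -0.02. The median change of member sites was -0.11 for H3K27ac, 0.29 for CTCF, 0.05 for NANOG and 0.21 for IKAROS. Over all sites of the same antibodies it was 0.00, -0.03, -0.03 and 0.00.

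**Figure D5:**
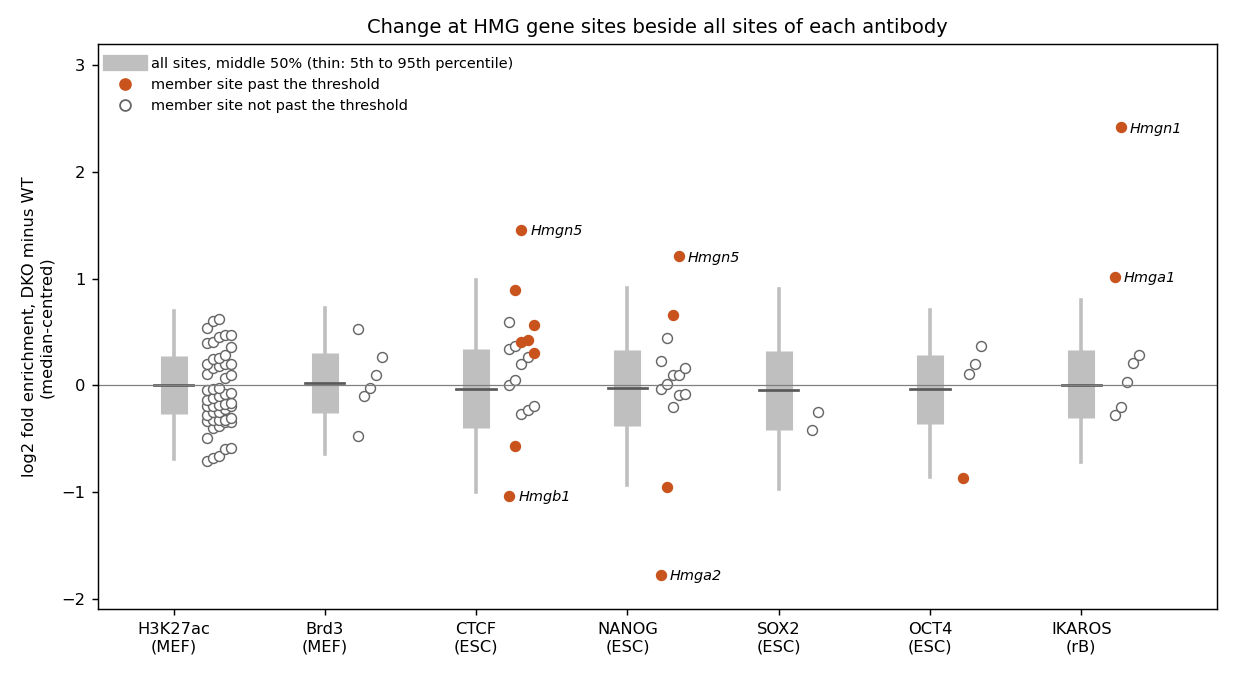
Change in fold enrichment between genotypes (log2, DKO minus WT, median-centred) for 7 antibodies, with grey bars for all sites called in all 4 libraries (thick: middle 50%, thin: 5th to 95th percentile) and 1 point per member site, filled where it passed the threshold. IKAROS at Hmgn1, at 2.42, and NANOG at Hmga2, at -1.77, lie farthest from their grey bars, and no H3K27ac point is filled.

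Sites called in one genotype only were 31 for WT and 13 for DKO, and the shares are given beside those of all sites. With the same number of top peaks from each list the numbers were 14 and 6. For Brd3 29.8% of 57 member sites were WT-only, beside 27% of all. For H3K27ac 5.79% of 121 were WT-only, beside 5.83%, and 2.48% DKO-only, beside 4.40%. For OCT4 5 of 13 were DKO-only, beside 28.8%, and for IKAROS 4 of 11 were WT-only, beside 28.2%. For SOX2 1 of 10 was WT-only, beside 0.588%, and 2 were DKO-only, beside 16.6%. For p300 1 of 9 was WT-only, beside 15.2%, and 1 DKO-only, beside 0.632%. For NANOG 2 of 31 were DKO-only, beside 9.44%, and for ETS1 1 of 3 was WT-only, beside 33.9%. Nearly all Brd3 sites of the members, 53 of 57, overlapped an H3K27ac site, but 36 of the 57 were at Hmga2 alone. All 10 SOX2 sites and 8 of 13 OCT4 sites overlapped a NANOG site, whereas 1 of 31 CTCF sites did. Such overlaps were not counted over all sites of these antibodies, so nothing particular to the members is read from them.

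Other genes of related function were counted in the same way. Other HMG-box genes (12 genes) had 154 shared sites, of which 22 were lower and 16 higher in DKO. Linker histone genes (7 of 8 annotated under the names searched) had 80, of which 10 were lower and 1 higher. Writers, readers and erasers of H3K27 marks (14 genes) had 206, of which 25 were lower and 27 higher. For H3K27ac these lists had 1 lower and 3 higher of 40, 2 and 0 of 39, and 2 and 3 of 54, beside 3.62% lower and 3.89% higher of all H3K27ac sites. For CTCF they had 9 lower and 6 higher of 37, 3 and 1 of 9, and 15 and 7 of 52, beside 25.2% lower and 22.6% higher of all CTCF sites. For NANOG they had 7 and 4 of 36, 3 and 0 of 15, and 5 and 10 of 47, beside 16.0% and 14.0% of all NANOG sites. The totals over all antibodies mix different backgrounds, and no share of all sites was computed for them.

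The genes with the peak numbers most like those of each member, over the 64 libraries, were found by Pearson's r on log2(number of peaks + 1). They were Tsga10ip, Ash1l and Mgrn1 for Hmgn1 (r = 0.97 to 0.95), and Map3k15, Tmem29 and Gm10000 for Hmgn2 (r = 0.81 to 0.79). For Hmga2 they were Ppme1, Basp1 and Parva (r = 0.97 to 0.96), for Hmga1 4930481A15Rik, Nup133 and Snx9 (0.95 to 0.94), for Hmgb1 Pnpla7, Efhb and 4930404A10Rik (0.95 to 0.93), and for Hmgb2 Hes7, Lpcat4 and Rrp12 (0.94 to 0.93). For Hmgn3 they were 3300002I08Rik, Etaa1 and Crp (0.94 to 0.92) and for Hmgn5 Cyp2b10, Vtcn1 and Gm16223 (0.95 each). These correlations are a description, since the libraries share antibodies and list lengths. Hmgn2 had the lowest of them.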

How the data were processed

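ChIP-seq of 16 antibodies was analysed from 64 deposited MACS2 narrow peak lists, 1 per library, with 2 WT and 2 DKO replicates per antibody. The 8 input samples were not analysed here. The submitters' processing notes name bcl2fastq 1.8.4, cutadapt 1.16, BWA 07.17, MACS2 2.1.1.20160309 and mm9. The authors trimmed and mapped the reads, marked duplicates, removed blacklisted regions and called peaks in each library. The deposited fold enrichment is a ratio of the summit pileup to the local background. The authors' lists also give -log10 p and -log10 q at the summit, and a score that is 10 times the -log10 q. Read counts were not used here, so the depth is known only where pileups could be solved, and a missing peak says that none was called.

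The members and gene lists were chosen with earlier results of these data known. Peaks within 20 kb of gene bodies of GENCODE vM1 were counted. A site is a merger of peaks of an antibody's 4 libraries that overlapped by at least 1 bp, and its value in a library is the highest fold enrichment. At sites called in all 4 libraries, log2 fold enrichment was centred on each library's median and tested between genotypes with limma 3.58.1 (R 4.3.3, trended prior) over all sites of the antibody, with Benjamini-Hochberg adjusted p at 0.05. An exact test of 2 against 2 cannot go below p = 0.333. Sites called in both libraries of 1 genotype and in none of the other were counted as WT-only or DKO-only. Every site that passed or was called in 1 genotype, and the strongest site of each antibody at each member, could be named.

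In simulated data with 200 features changed by 1.5 on the log2 scale, the site test recovered 97.5% for H3K27ac (42234 sites), 99.5% for NANOG (39762 sites) and 100% for IKAROS (3549 sites), with 2.01%, 9.13% and 5.66% false among its calls. The noise at sites was normal, with the SD of each site in the real fit, so the simulated sites obeyed the model of the test. Recovery of smaller changes, as at most sites called here, was not simulated, nor were CTCF and OCT4. The same test of peak numbers per gene, also on simulated data, gave 84.0%, 79.3% and 33.5% false calls over 15318, 15685 and 4348 genes. Peak numbers were therefore not tested, and are described by whether the 2 groups overlap, for genes with a mean of at least 1 peak. Sequences are 101 bases of mm9 around summits. Alternatives were other windows, peak filters, equal list lengths, merged peaks, kilobases covered, no centring, -log10 p, no variance trend, a replicate block and leaving out each library.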

Additional observations from a re-analysis of the deposited data

How the results depend on the processing

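Of the 15 sites that passed the test, their values under the alternatives kept direction and threshold 128 times, kept direction but missed the threshold 21 times, and reversed 1 time, for OCT4 73.9 kb from the start of Hmga2, at 0.0958 (log2) without centring. Sites lower in DKO numbered 5, with 11 without centring, 3 with -log10 p and 4 to 5 when 1 library was left out. Sites higher in DKO numbered 10, with 14 without centring, 7 with -log10 p and 7 to 10 when 1 library was left out. Gene windows with a mean of at least 1 peak and fewer in DKO numbered 8, with 4 for equal numbers of top peaks, 4 with peaks merged within 1000 bp, 13 by kilobases covered and 10 to 12 when 1 library was left out. Windows with more peaks numbered 6, with 3, 3, 12 and 6 to 8 in the same order. WT-only sites numbered 31, with 14 for top peaks, 105 where 1 library sufficed, 48 within 50 kb and 40 to 74 when 1 library was left out. DKO-only sites numbered 13, with 6, 44, 8 within 5 kb and 16 to 36. Replicate deviations did not pair (r from -0.0611 to 0.023 over 13 antibodies), and with a replicate block 5 sites were lower and 11 higher. The block and the fit without a variance trend were not run on peak numbers, which were not tested. The cause of these differences was not tested, except that fewer libraries make calling in 1 genotype easier. Weak peaks near the lowest -log10 q of 2.0 can be missed in a shallow library.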
